A study of Homo sapiens with 6 samples.

Results

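Amino acid transporter genes were examined in RKO, an established human colon carcinoma line, with GSK3B knocked out and with wild-type GSK3B. GSK3B encodes a serine/threonine kinase, and polyadenylated RNA was sequenced from 3 knockout and 3 wild-type libraries to find which transcripts depend on it. The labels give no treatment and no allele beyond the knockout of GSK3B. The method of knockout, the use of 1 clone or a pool, and the origin of the libraries from separate cultures are not stated in them, so the p-values measure only the spread between these libraries, which may be technical. The transporter genes were those whose symbols begin with SLC1A, SLC6A, SLC7A, SLC36A, SLC38A or SLC43A, together with SLC3A1 and SLC3A2. These names also take in carriers of other substrates, among them SLC6A4 for serotonin and SLC6A8 for creatine. Of 65 symbols with these names, 6 antisense, opposite-strand or pseudogene symbols were left out, which gave 59 of the 28278 gene symbols in the count tables.

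Amino acids cross the plasma membrane and the lysosomal membrane through carriers of several protein families, some of which exchange 1 amino acid for another while others use the sodium or proton gradient. Carriers of the SLC7 family that act as exchangers need a partner glycoprotein, encoded by SLC3A1 or SLC3A2, to reach the surface. SLC7A11 pairs with the SLC3A2 product and takes up cystine in exchange for glutamate, which supplies cysteine for glutathione. Dividing tumour cells rely on glutamine, leucine, arginine and cystine uptake. Many carrier genes respond to the transcription factor ATF4 in amino acid shortage, and SLC7A11 also to NRF2, a factor that GSK3 kinases are known to phosphorylate.

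GSK3B itself was present at 46.0, 47.5 and 47.1 CPM (counts scaled to a common library total by the TMM method) in knockout replicates 1 to 3, against 99.0, 97.6 and 91.4 CPM in wild-type replicates 1 to 3. The knockout level was 48.8% of wild type (95% interval 45.4 to 52.4), with a log2 fold change of -1.04 ± 0.05 SE (edgeR adjusted p = 1.88e-12), and the counts do not show which part of it remained. Total counts ran from 32379369 to 33558362 in knockout libraries and from 32565829 to 33052404 in wild-type libraries. Of 14 markers of colon epithelium, CDX2, VIL1, KRT8 and KRT18 were expressed and CDH1, CDX1, CEACAM5 and TFF3 were listed at 0. KRT19, KRT20, CDH17, LGR5 and MUC2 had between 0 and 5 counts in any library, too few to be tested. EPCAM was lower, at 1.07 CPM in knockout and 3.43 CPM in wild-type libraries. The summed level of that list was 139 to 144 CPM in knockout and 136 to 143 CPM in wild-type libraries. Of 8 fibroblast markers FAP was at 0, and the list summed to 0.808 to 0.944 CPM in knockout against 1.79 to 4.32 CPM in wild-type libraries. Its highest gene was PDGFRB, at 1.32 CPM on average. Only 1 gene of the list had enough counts to be tested, and it was called lower. The part of these markers in the results was not tested. Among 8 immune markers PTPRC, CD3E and NKG7 were at 0, and the sum of 754 to 759 CPM in knockout and 740 to 763 CPM in wild-type libraries was nearly all CD68, at 753 CPM on average. Of 6 endothelial markers CDH5 and TEK were at 0 and the list summed to 0.152 to 0.249 CPM in knockout and 0.0608 to 0.240 CPM in wild-type libraries.

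In total 7 transporter genes rose in the knockout and 1 fell, of 27 that had enough counts to be tested. In the edgeR fit SLC7A11, the cystine carrier, rose most, and SLC36A1, SLC38A7, SLC38A1, SLC7A6, SLC1A5 and SLC7A1 rose by smaller amounts. That order changed with a correction for transcript GC content, where SLC36A1 (log2 fold change 0.32) and SLC38A7 (0.30) stood above SLC7A11 (0.28). Whether these rises differ from each other was not tested. SLC1A3, a glutamate carrier at a low level, fell. The share of tested transporter genes that rose was 25.9%, beside 6.36% of all 14409 tested genes, and the share that fell was 3.70%, beside 7.18% of all tested genes (edgeR quasi-likelihood test, Benjamini-Hochberg adjusted p under 0.05 over all tested genes). In bulk RNA a lower level in each cell cannot be told apart from fewer cells that express the gene. The changes were small: 1 of 27 tested transporter genes moved 1.5-fold or more, and the median size of the 8 called changes was 0.21 on the log2 scale, against 0.25 over all called genes. The median log2 fold change of the 27 was 0.10, against 0.00 over all tested genes. The 2 groups did not overlap for 9 members that were higher and 3 that were lower in the knockout, beside 15.4% and 15.9% of all tested genes. At an unadjusted p under 0.05 there were 11 higher and 3 lower members, beside 28.0% of all tested genes in either direction. DESeq2 and limma-voom each called the same 8 genes. The tested transporter genes had a median level of 35.5 CPM, against 28.6 CPM over all tested genes.

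**Figure D1:**
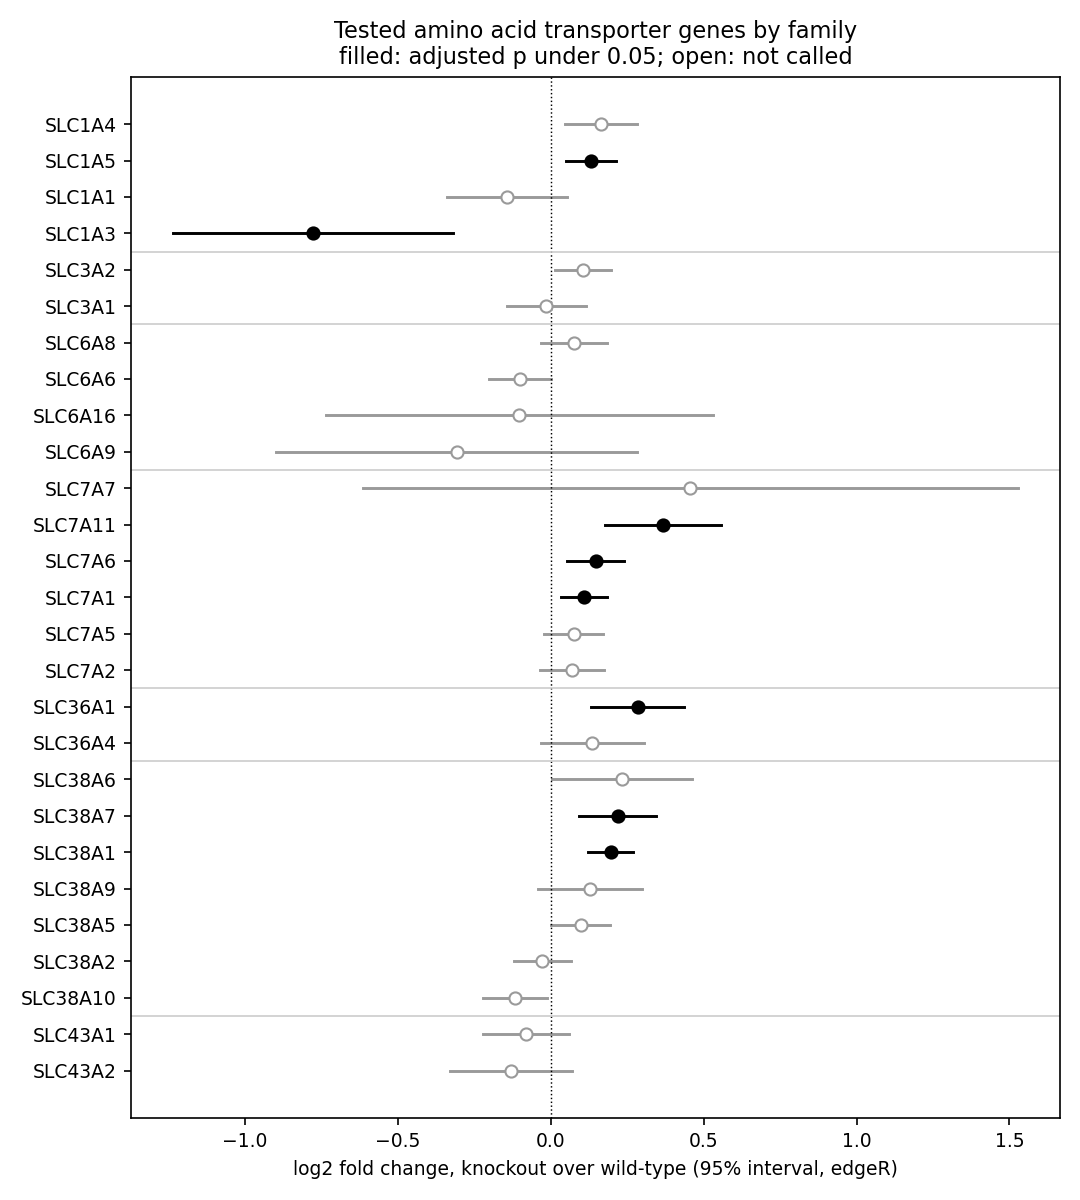
Log2 fold change, knockout over wild type, of the 27 tested amino acid transporter genes on the x axis, grouped by family from top to bottom; lines are 95% intervals of the edgeR fit and filled points passed an adjusted p of 0.05. The 7 filled points right of 0 lie in the SLC1, SLC7, SLC36 and SLC38 families, and SLC1A3 at -0.78 is the filled point left of 0.

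The call counts depended on the libraries and on the scaling. Leaving out knockout replicate 1, 2 or 3 left 4, 2 and 2 called members, beside 7.48%, 6.5% and 8.24% of all genes tested in those fits. Leaving out wild-type replicate 1, 2 or 3 left 5, 3 and 12 called members, beside 17.3%, 7.35% and 14.0%. SLC38A1 was called in each of these 6 fits. With scaling by library size alone 4 members rose and 1 fell, beside 4.5% and 8.53% of all tested genes. After a correction for transcript GC content 12 members rose and 2 fell, beside 13.7% and 7.4% of all tested genes, and the 8 members called without the correction were called with it. The tested members span a GC content from 35.0% to 64.3%, with SLC7A11 at 35.4% and SLC1A5 at 61.3%. The median over the members was 0.15 with the GC correction, against 0.02 over all tested genes.

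**Figure D2:**
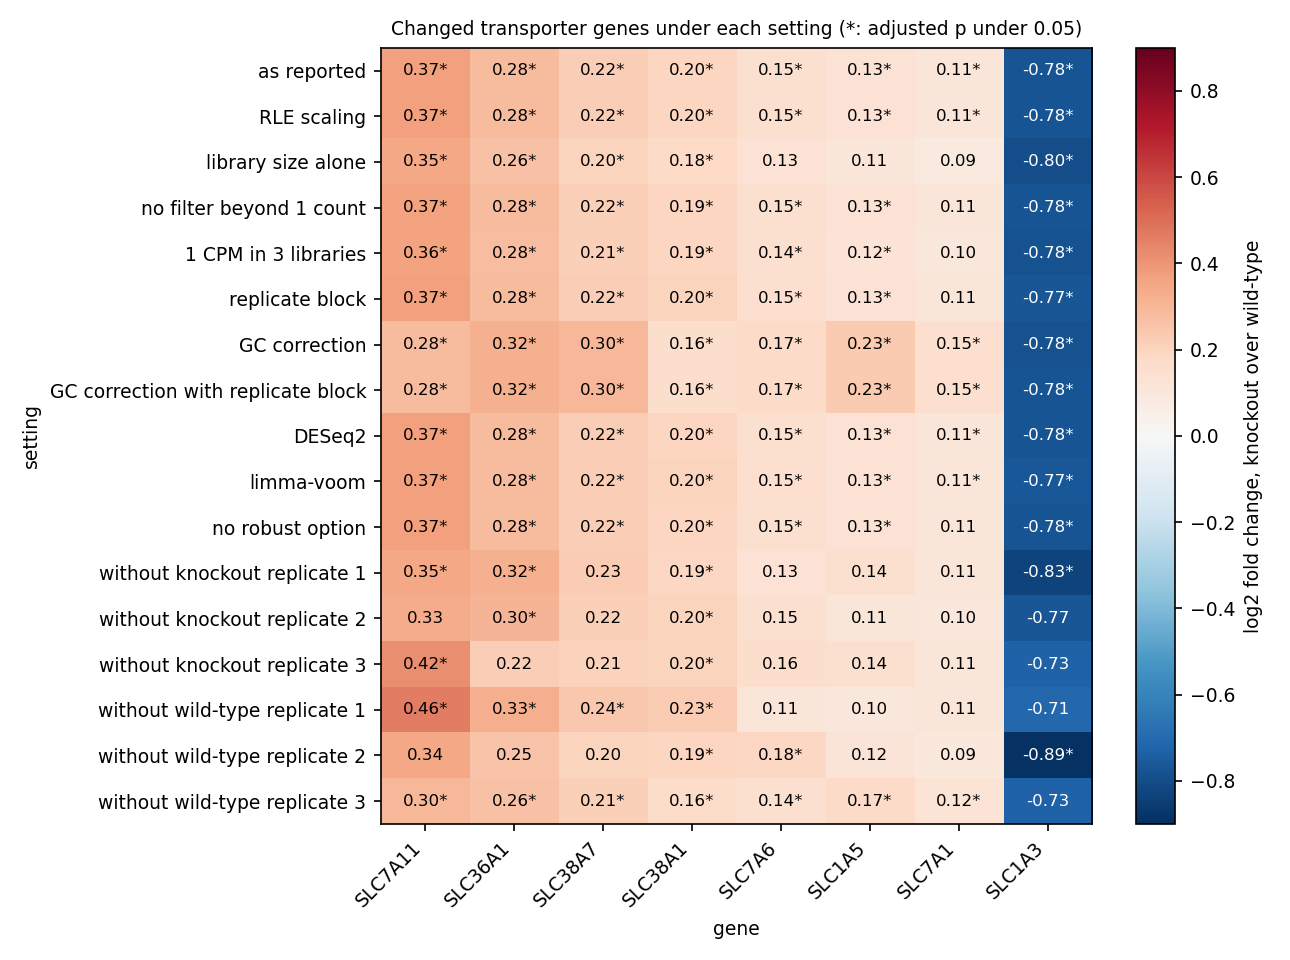
Log2 fold change, knockout over wild type, of the 8 called transporter genes (columns) under each processing setting (rows), with an asterisk where the adjusted p was under 0.05. Each gene kept its sign in all 17 rows, and SLC38A1 carries an asterisk in each row.

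Of the 59 genes, 20 were listed at 0 in all 6 libraries and a further 12 had too few counts to be tested. The 20 comprised 11 SLC6 genes, among them the epithelial carriers SLC6A14, SLC6A19 and SLC6A20, 3 SLC1 genes, 3 SLC7 genes and the SLC38 genes SLC38A3, SLC38A4 and SLC38A11. The 12 with few counts held between 0 and 13 counts in any library, the highest being SLC6A4, the serotonin carrier, with 8, 6 and 7 counts in knockout and 6, 13 and 8 in wild-type libraries. A count of 0 allows up to 3 counts, or 0.0933 CPM in the shallowest library, for counting error only. FBL and EEF1B2, needed in growing cells, are also listed at 0, and no value of 0 here is taken to mean an unexpressed gene.

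To set the sequence near the start sites beside the changes, the promoters that RefSeq gives for the members (GRCh38.p14, 250 bases before to 50 after each start) were searched on both strands for the ATF4 composite element, TGATGNAAN, and for the antioxidant response element bound by NRF2, TGACNNNGC. The table held 44 of the 59 members, 23 of the 27 tested and 7 of the 8 called, and SLC7A11 was not among them. The ATF4 letters were present in 4 of the 7 called members (SLC1A3, SLC1A5, SLC38A1 and SLC7A1) and 2 of the 16 tested members that were not called (SLC1A4 and SLC3A2), beside 4.45% of the 27305 genes in the table. The antioxidant letters were present in 4 of the 7 called members (SLC1A3, SLC1A5, SLC7A1 and SLC7A6) and 3 of the 16 not called (SLC3A2, SLC7A5 and SLC7A7), beside 16.1% of all genes in the table. A gene with several starts has several windows, and so more places for a match. Counted by window, the ATF4 letters were in 4 of 14 windows of called members and 6 of 41 of tested members. They were in 3.61% of all 35116 windows. The antioxidant letters were in 4 of 14 and 7 of 41, beside 13.3% of all windows. SLC1A3, which holds both motifs, fell, while the other called members with a match rose. The counts do not show which start was used, so these matches are a description of letters and no test was made. Below are the windows of 3 members that rose and of SLC3A2, the shared partner, with the motif letters in capitals. The SLC7A1 window (chr13:29595639-29595938, minus strand) holds TGACGCGGC from -85 to -77 and TGATGAAAC from 8 to 16, counted from the start base as 1, with no position 0. The SLC38A1 window (chr12:46266467-46266766, minus strand) is 1 of 2 starts and holds TGATGAAAA from -4 to 5. The SLC7A6 window (chr16:68264276-68264575, plus strand) holds TGACGAGGC and TGACGTGGC. The SLC3A2 window (chr11:62881449-62881748, plus strand) is 1 of 3 starts and holds TGACTCAGC from -37 to -29 and, on the other strand, TGATGTAAG from 37 to 45.
SLC7A1: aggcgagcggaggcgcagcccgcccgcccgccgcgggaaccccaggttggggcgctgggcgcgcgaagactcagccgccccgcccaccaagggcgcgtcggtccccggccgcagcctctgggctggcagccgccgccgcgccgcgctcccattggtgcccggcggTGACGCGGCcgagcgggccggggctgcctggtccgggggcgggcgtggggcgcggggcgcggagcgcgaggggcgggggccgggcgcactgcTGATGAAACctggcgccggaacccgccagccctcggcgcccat
SLC38A1: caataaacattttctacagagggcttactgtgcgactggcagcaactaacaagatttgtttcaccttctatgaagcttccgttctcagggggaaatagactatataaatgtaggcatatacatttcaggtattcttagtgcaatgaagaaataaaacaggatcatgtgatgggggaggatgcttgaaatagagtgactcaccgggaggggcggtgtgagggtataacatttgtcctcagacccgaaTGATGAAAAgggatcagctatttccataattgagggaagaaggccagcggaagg
SLC7A6: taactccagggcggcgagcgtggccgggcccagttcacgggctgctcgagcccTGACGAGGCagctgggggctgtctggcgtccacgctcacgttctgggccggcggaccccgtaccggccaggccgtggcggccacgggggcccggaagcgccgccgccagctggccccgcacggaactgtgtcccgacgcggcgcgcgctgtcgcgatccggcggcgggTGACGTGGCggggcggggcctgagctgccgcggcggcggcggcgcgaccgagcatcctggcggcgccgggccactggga
SLC3A2: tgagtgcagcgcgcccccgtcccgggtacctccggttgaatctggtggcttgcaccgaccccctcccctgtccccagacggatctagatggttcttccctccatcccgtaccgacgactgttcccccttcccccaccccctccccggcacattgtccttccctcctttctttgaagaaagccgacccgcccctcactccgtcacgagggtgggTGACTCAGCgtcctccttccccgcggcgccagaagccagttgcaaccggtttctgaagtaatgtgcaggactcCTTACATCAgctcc

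The SLC7 family held 13 members, of which 6 were tested. Of these 3 rose and 0 fell, beside 6.36% and 7.18% of all tested genes. Each family had only 2 to 7 tested members, and differences between families were not tested. SLC7A11, the light chain of the cystine and glutamate exchanger, had 17.7, 18 and 15.9 CPM in knockout replicates 1 to 3, against 15.1, 12.9 and 12 CPM in wild-type replicates 1 to 3. Each knockout library lay above each wild-type library, with the nearest pair being knockout replicate 3 and wild-type replicate 1. The mean was 17.2 ± 1.12 CPM in knockout and 13.3 ± 1.56 CPM in wild-type libraries (SD, n = 3 each), a 1.29-fold rise (95% interval 1.13 to 1.47; log2 fold change 0.37 ± 0.09 SE; edgeR adjusted p = 0.00897). Permuting the 6 library labels exactly, two-sided, gave p = 0.1, the lowest possible with 3 libraries a group. Without knockout replicate 2 or wild-type replicate 2 the gene was no longer called (log2 fold change 0.33 and 0.34, edgeR adjusted p = 0.0578 and 0.0537), and after the GC correction it stood at 0.28 (adjusted p = 0.0107). The gene occupies chr4:138164097-138242349 of hg38, minus strand, and 8.97% of its exon length is shared with the antisense gene SLC7A11-AS1. That gene had 30, 19 and 22 counts in knockout and 31, 17 and 11 counts in wild-type libraries, where SLC7A11 had 581, 579 and 530 counts and 496, 422 and 401 counts.

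SLC7A6, a light chain that exchanges cationic for neutral amino acids, had 130, 126 and 124 CPM in knockout and 110, 120 and 114 CPM in wild-type libraries. The groups did not overlap, and the gene rose 1.11-fold (log2 fold change 0.15 ± 0.04 SE, edgeR adjusted p = 0.0306). Of its exon length 55.6% is shared with other annotated genes, mainly with SLC7A6OS on the opposite strand. SLC7A6OS had 89.1 ± 2.00 CPM in knockout and 82.7 ± 4.06 CPM in wild-type libraries (SD, n = 3 each) and did not pass (log2 fold change 0.11, adjusted p = 0.147), and with the strand setting not given in the sources used here reads of the pair cannot be told apart. SLC7A6 was not called with scaling by library size alone (0.13, adjusted p = 0.0595), without knockout replicates 1, 2 or 3 (0.13, 0.15 and 0.16, adjusted p = 0.149, 0.114 and 0.0647) or without wild-type replicate 1 (0.11, adjusted p = 0.0886).

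SLC7A1, the main carrier of arginine and lysine, had 247, 247 and 246 CPM in knockout and 230, 224 and 233 CPM in wild-type libraries. It rose 1.08-fold (log2 fold change 0.11 ± 0.04 SE) and passed narrowly, with an edgeR adjusted p of 0.0476. The settings under which it was not called included library size alone as the scaling (0.09), keeping each gene with a count (0.11), requiring 1 CPM in 3 libraries (0.10), no robust option (0.11), and the fits without knockout replicates 1, 2 or 3 (0.11, 0.10 and 0.11) or without wild-type replicates 1 or 2 (0.11 and 0.09), with adjusted p from 0.0525 to 0.204 in these fits. SLC7A5, the light chain of the main leucine exchanger, had 158, 154 and 151 CPM in knockout and 137, 144 and 158 CPM in wild-type libraries. Wild-type replicate 3 lay just under the highest knockout library and above the other two, so the groups overlapped, and the gene did not pass (log2 fold change 0.08, 95% interval -0.02 to 0.17, adjusted p = 0.308). It was called after the GC correction (0.18, adjusted p = 1.16e-04) and without wild-type replicate 3 (0.13, adjusted p = 0.0103). Its pseudogene SLC7A5P2 held 157, 135 and 106 counts in knockout and 158, 155 and 169 counts in wild-type libraries, against 5198, 4945 and 5025 counts and 4520, 4719 and 5256 counts of SLC7A5. SLC7A2, a second carrier of cationic amino acids, stood at 0.07 (adjusted p = 0.407), and SLC7A7, with 3 to 21 counts per library, at 0.46 with an interval from -0.61 to 1.53.

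Of the 2 partner glycoproteins neither was called, beside 13.5% of all tested genes called in either direction. SLC3A2, which anchors SLC7A11, SLC7A5, SLC7A6 and other light chains, had 142, 137 and 148 CPM in knockout and 132, 128 and 137 CPM in wild-type libraries. Knockout replicate 2 lay just under wild-type replicate 3, so the groups overlapped, and the log2 fold change was 0.11 (95% interval 0.01 to 0.20, adjusted p = 0.118). It was called after the GC correction (0.18, adjusted p = 1.66e-04) and without wild-type replicate 3 (0.13, adjusted p = 0.0163). Whether SLC7A11 rose more than its partner was not tested. SLC3A1, the partner of the renal cystine carrier, had 35.3 ± 1.66 CPM in knockout and 35.7 ± 1.63 CPM in wild-type libraries (SD, n = 3 each; log2 fold change -0.01, 95% interval -0.14 to 0.12). Its exons share 54.6% of their length with PREPL and AC013717.1, and PREPL stood at 119 ± 3.41 CPM in knockout and 120 ± 5.27 CPM in wild-type libraries.

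**Figure D3:**
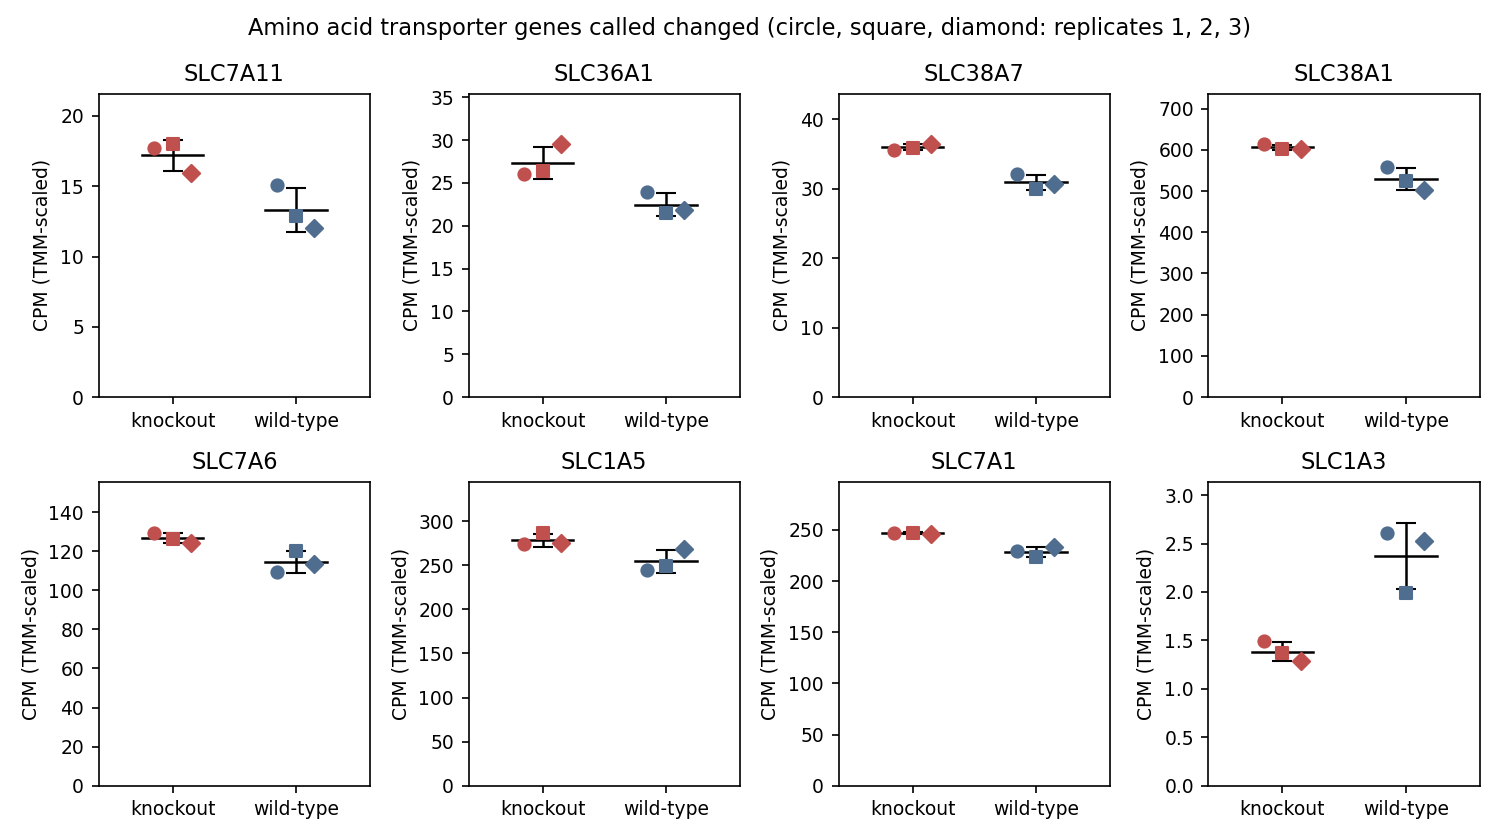
TMM-scaled CPM (y axis, from 0) of the 8 called transporter genes in each library, knockout left of wild type; symbols mark replicates 1 to 3, and bars are the mean and SD of 3 libraries. The groups do not overlap in any of the 8 panels, and the gap is widest relative to the level in SLC1A3, at 1.38 against 2.37 CPM.

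In the SLC1 family, which holds the sodium-coupled glutamate carriers and the neutral exchangers of the ASC type, 4 of 7 members were tested. Of these 1 rose and 1 fell, beside 6.36% and 7.18% of all tested genes. SLC1A5, the main glutamine exchanger of many tumour cells, had 274, 287 and 275 CPM in knockout and 245, 250 and 269 CPM in wild-type libraries. The groups did not overlap, with wild-type replicate 3 closest to the knockout, and the rise was 1.09-fold (log2 fold change 0.13 ± 0.04 SE, edgeR adjusted p = 0.0294). The value was 0.23 after the GC correction (adjusted p = 1.19e-07) and 0.17 without wild-type replicate 3 (adjusted p = 1.19e-04). It was not called with scaling by library size alone (0.11, adjusted p = 0.0638), without knockout replicates 1, 2 or 3 (0.14, 0.11 and 0.14, adjusted p = 0.0702, 0.202 and 0.0714) or without wild-type replicates 1 or 2 (0.10 and 0.12, adjusted p = 0.0845 and 0.139). Of its exon length 23.8% is shared with genes on the opposite strand, nearly all with the antisense gene AC008622.2. SLC1A4, the close relative of SLC1A5 that carries serine, alanine and cysteine, stood at 0.16 with an adjusted p of 0.0575, at 49.7 ± 0.102 CPM in knockout and 44.4 ± 2.56 CPM in wild-type libraries (SD, n = 3 each). It was called after the GC correction (0.19, adjusted p = 0.00874).

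SLC1A3, a glutamate carrier best known from glial cells, had 1.49, 1.37 and 1.29 CPM in knockout and 2.61, 1.99 and 2.52 CPM in wild-type libraries. These are 49, 44 and 43 counts and 86, 65 and 84 counts, and each knockout library lay below each wild-type library. The knockout level was 58.4% of wild type (95% interval 42.5 to 80.1; log2 fold change -0.78 ± 0.22 SE, edgeR adjusted p = 0.0210). The gene was not called without knockout replicate 2 or 3 (-0.77 and -0.73, adjusted p = 0.0741 and 0.0696) or without wild-type replicate 1 or 3 (-0.71 and -0.73, adjusted p = 0.0587 and 0.0542). Of 7 neural and glial markers none was at 0 in every library, and the list summed to 5.95 to 8.80 CPM in knockout and 6.87 to 8.89 CPM in wild-type libraries, with 0 of 3 tested markers called; its part in the result was not tested. SLC1A1, the epithelial glutamate carrier, had 10.7 ± 0.365 CPM in knockout and 11.8 ± 0.991 CPM in wild-type libraries and did not pass (log2 fold change -0.14, adjusted p = 0.352).

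The SLC38 family, sodium-coupled carriers of glutamine and other small neutral amino acids, took the largest share of counts among the families. Of its 7 tested members 2 rose, beside 6.36% of all tested genes. SLC38A1, the glutamine and alanine carrier with the most counts of all members, had 614, 602 and 601 CPM in knockout and 557, 525 and 503 CPM in wild-type libraries. Each knockout library lay above each wild-type library, and the rise was 1.15-fold (95% interval 1.09 to 1.21; log2 fold change 0.20 ± 0.04 SE, edgeR adjusted p = 6.10e-04). It was called under all 10 other settings, at 0.16 after the GC correction, and in all 6 fits without 1 library, at 0.16 to 0.23. It occupies chr12:46183063-46270017 and its neighbour SLC38A2 chr12:46358189-46372867, both on the minus strand.

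SLC38A2, whose mRNA is a known target of amino acid shortage through ATF4, had 191, 198 and 189 CPM in knockout and 207, 200 and 181 CPM in wild-type libraries. The groups overlapped and the log2 fold change was -0.03 (95% interval -0.12 to 0.06, adjusted p = 0.742). After the GC correction it stood at -0.09 and was called (adjusted p = 0.0177), and its sign was positive without wild-type replicate 1. Whether the 2 neighbours differed from each other in their change was not tested. SLC38A7, a carrier that moves glutamine and asparagine out of lysosomes, had 35.6, 35.8 and 36.4 CPM in knockout and 32.1, 29.9 and 30.7 CPM in wild-type libraries. Each knockout library was higher, and the gene rose 1.16-fold (log2 fold change 0.22 ± 0.06 SE, edgeR adjusted p = 0.0183; 0.30 after the GC correction). It was not called without knockout replicates 1, 2 or 3 (0.23, 0.22 and 0.21, adjusted p = 0.0587, 0.0775 and 0.0724) or without wild-type replicate 2 (0.20, adjusted p = 0.0958).

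The other tested members of the family did not pass. SLC38A9, the lysosomal arginine sensor upstream of mTORC1, stood at 0.13 (95% interval -0.04 to 0.30), at 20.7 ± 2.00 CPM in knockout and 18.9 ± 1.42 CPM in wild-type libraries (SD, n = 3 each). SLC38A5, a carrier of glutamine, histidine and asparagine, stood at 0.10 (adjusted p = 0.177), with 171, 168 and 169 CPM in knockout and 145, 160 and 169 CPM in wild-type libraries. Wild-type replicate 3 lay among the knockout libraries, and the gene was called after the GC correction (0.17, adjusted p = 2.52e-04). SLC38A6 stood at 0.23 with 9.39 ± 0.220 CPM in knockout and 7.99 ± 1.05 CPM in wild-type libraries (adjusted p = 0.170), and SLC38A10 at -0.12 with 70.0 ± 2.98 CPM and 75.9 ± 2.98 CPM (adjusted p = 0.127).

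Of the 4 SLC36 members, proton-coupled carriers of small amino acids, 2 were tested and 1 rose, beside 6.36% of all tested genes. SLC36A1, found on lysosomes and at the intestinal surface, had 26.0, 26.5 and 29.5 CPM in knockout and 24, 21.5 and 21.9 CPM in wild-type libraries. Knockout replicate 3 was the highest and the groups did not overlap. The rise was 1.22-fold (95% interval 1.10 to 1.35; log2 fold change 0.28 ± 0.07 SE, edgeR adjusted p = 0.0114), and 0.32 after the GC correction. It was not called without knockout replicate 3 (0.22, adjusted p = 0.0949) or wild-type replicate 2 (0.25, adjusted p = 0.0724). SLC36A4 stood at 0.14 (95% interval -0.03 to 0.30), with 22.0 ± 1.47 CPM in knockout and 20.0 ± 1.96 CPM in wild-type libraries (SD, n = 3 each).

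In the SLC6 and SLC43 families none of the 6 tested members passed edgeR, DESeq2 or limma-voom. Over all tested genes 13.5% passed edgeR in either direction. Of 19 SLC6 genes 4 were tested. SLC6A8, the creatine carrier, had 118, 118 and 113 CPM in knockout and 100, 111 and 120 CPM in wild-type libraries, which overlap (log2 fold change 0.08, 95% interval -0.03 to 0.18). It was called after the GC correction (0.19, adjusted p = 3.06e-04) and without wild-type replicate 3 (0.14, adjusted p = 0.0226). SLC6A6, the taurine carrier, had 80.3, 83.1 and 78.8 CPM in knockout and 81.9, 87.7 and 90.1 CPM in wild-type libraries which overlap, and stood at -0.10 (adjusted p = 0.178); it was called without wild-type replicate 1 (-0.14, adjusted p = 0.0417). At an unadjusted p under 0.05 it was the 1 of the 6 that passed. SLC6A9, a glycine carrier, and SLC6A16, an orphan carrier, were at about 1 CPM, with intervals of their log2 fold change from -0.90 to 0.28 and from -0.73 to 0.53. SLC43A1, a sodium-independent leucine carrier, had 32 ± 2.42 CPM in knockout and 33.8 ± 1.87 CPM in wild-type libraries (log2 fold change -0.08, adjusted p = 0.469). Its relative SLC43A2 had 9.32 ± 0.032 CPM in knockout and 10.2 ± 0.493 CPM in wild-type libraries (SD, n = 3 each; -0.13, adjusted p = 0.414).

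Levels can be compared between genes only per length, here as CPM per kilobase of annotated exon. SLC1A5 was highest, at 83.6 ± 2.21 CPM per kb in knockout and 76.4 ± 3.82 CPM per kb in wild-type libraries (SD, n = 3 each). SLC38A1 followed at 60.5 ± 0.707 CPM per kb in knockout and 52.8 ± 2.72 CPM per kb in wild-type libraries, and SLC38A5 at 42.1 ± 0.353 and 39.4 ± 3.05 CPM per kb. SLC7A5, SLC7A1, SLC38A2 and SLC3A2 came next, from 27.5 to 32.5 CPM per kb in knockout and from 25.5 to 30.9 CPM per kb in wild-type libraries, close enough that SLC7A5, SLC7A1 and SLC38A2 overlapped within the wild-type spread. The changed gene SLC7A11 was far lower, at 1.78 ± 0.116 CPM per kb in knockout and 1.38 ± 0.162 CPM per kb in wild-type libraries, rank 22 of the 27. Its partner SLC3A2 stood at 27.5 ± 1.14 CPM per kb in knockout and 25.5 ± 0.912 CPM per kb in wild-type libraries. With the longest transcript as the length SLC1A5 and SLC38A1 remained ranks 1 and 2 and SLC7A11 rank 22, while SLC3A2 moved to rank 3.

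**Figure D4:**
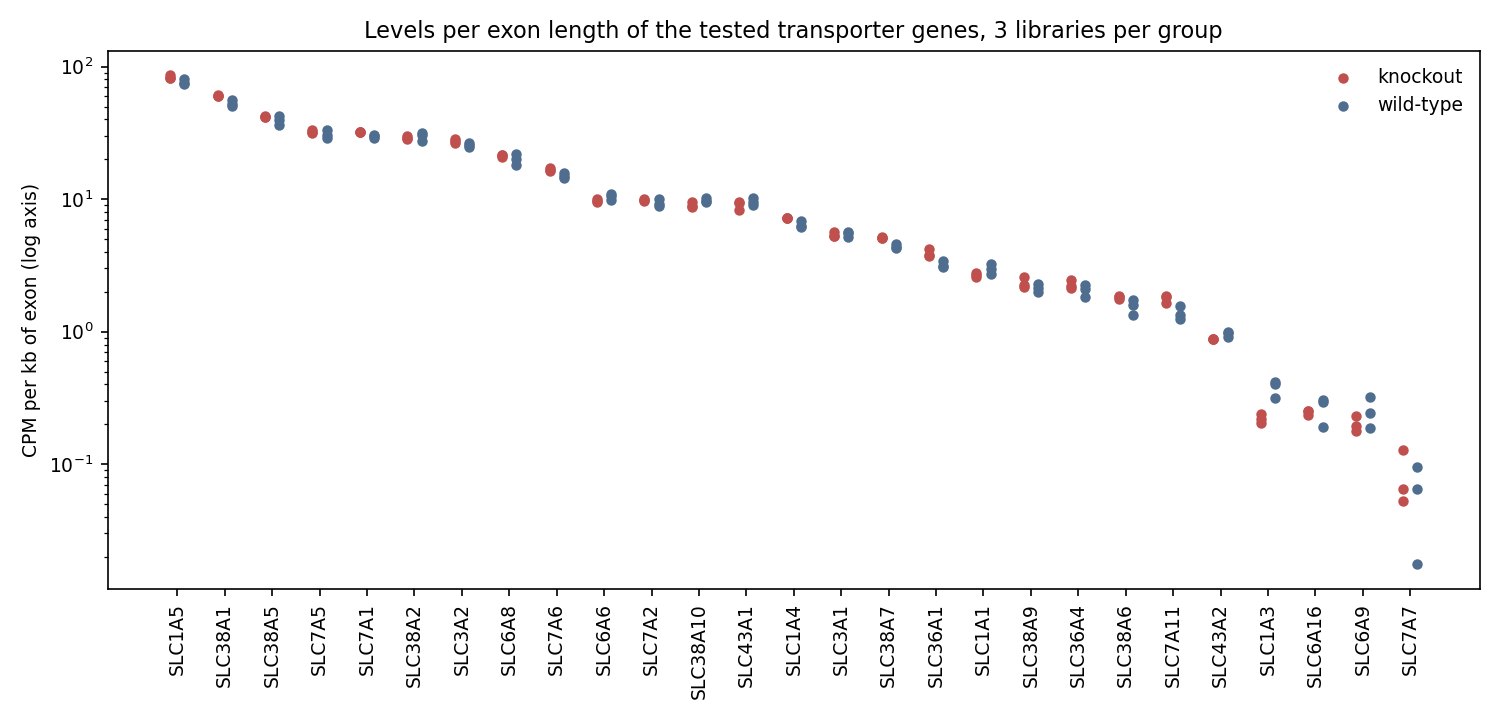
CPM per kilobase of exon (y axis, log scale) of the 27 tested transporter genes in order of their mean level; points are single libraries, knockout left of wild type. SLC1A5 and SLC38A1 stand highest, and SLC7A11 lies at rank 22, between SLC38A6 and SLC43A2.

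Summed over families, CPM values show which families carry the counts, with no test. The SLC38 genes together had 1114, 1103 and 1092 CPM in knockout and 1042, 1019 and 988 CPM in wild-type libraries, and the SLC7 genes 631, 626 and 614 CPM in knockout and 572, 572 and 590 CPM in wild-type libraries. The SLC3 genes had 178 ± 7.37 CPM in knockout and 168 ± 3.47 CPM in wild-type libraries (SD, n = 3 each). The SLC1 genes had 340 ± 7.75 CPM in knockout and 313 ± 14.5 CPM in wild-type libraries, and the SLC36 genes 49.3 ± 2.00 and 42.5 ± 3.18 CPM (SD, n = 3 each). Each of these sums was higher in the knockout, with no overlap between the groups. The SLC3 groups were barely apart, at 171.2 CPM in knockout replicate 2 and 171.0 CPM in wild-type replicate 3. Single genes made up much of some sums. SLC38A1 averaged 606 CPM in knockout and 529 CPM in wild-type libraries, and SLC1A5 279 and 254 CPM. The SLC6 sum was 199 ± 4.11 CPM in knockout and 199 ± 13.7 CPM in wild-type libraries, and the SLC43 sum 41.4 ± 2.48 and 44.2 ± 2.05 CPM, where the groups overlap. All 59 members together had 2549, 2538 and 2517 CPM in knockout and 2360, 2346 and 2379 CPM in wild-type libraries, a difference of 7.33%.

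Genes that sense, use or regulate amino acids were counted in 7 lists, of which some share ASNS, ATF4 or CHAC1. Beside the 13.5% of all tested genes called in either direction, 1 of 19 other amino acid carriers rose and 1 fell, and 1 of 34 genes of amino acid sensing upstream of mTORC1 rose and 2 fell. Of 17 genes of cystine use and glutathione 4 rose and 2 fell, and of 22 genes of the GCN2 and ATF4 response to amino acid shortage 1 rose and 5 fell. Of 19 enzymes of glutamine, arginine and branched-chain amino acid use 1 rose and 4 fell. Of 12 regulators of carriers at the surface 0 rose and 2 fell, and of 19 transcription factors tied to carrier genes 1 rose and 4 fell. List medians ran from -0.07 for the enzymes to 0.05 for the other carriers. After the GC correction 13.7% of all tested genes were higher and 7.4% lower. Beside these shares the other carriers had 5 higher and 1 lower, the sensing list 5 and 3, and the ATF4 list 5 and 4. The surface regulators had 2 and 3, the glutathione list 6 and 2, the enzymes 2 and 5 and the transcription factors 1 and 4.

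In the cystine and glutathione list CHAC2, a glutathione-degrading enzyme, rose to 14.7 ± 1.30 CPM in knockout against 11.5 ± 1.04 CPM in wild-type libraries (log2 fold change 0.35), and GCLM, the modifier subunit of the enzyme that starts glutathione synthesis, rose to 43.7 ± 1.14 against 37.1 ± 1.78 CPM (0.24). CHAC1, a relative of CHAC2 and a target of ATF4, fell to 2.08 ± 0.0984 against 3.29 ± 0.373 CPM (-0.67), and the thioredoxin reductase gene TXNRD1 changed by -0.25 (SD, n = 3 each). Members of this list therefore moved in both directions. CHAC2 was not called without knockout replicate 1 or wild-type replicate 2 (0.28 in each), GCLM without knockout replicate 1 or 2 (0.22 and 0.23), and CHAC1 without knockout replicate 1 or wild-type replicate 2 or 3 (-0.63, -0.66 and -0.58). In the ATF4 list DDIT4, an inhibitor of mTORC1, and the transcription factor gene ATF3 changed by -0.77 and -0.69, and ATF5 by 0.43, all called in the 6 fits without 1 library.

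Among sensing genes RRAGA, a Rag GTPase that recruits mTORC1 to lysosomes, fell to 113 ± 4.76 CPM in knockout against 153 ± 3.46 CPM in wild-type libraries (SD, n = 3 each; log2 fold change -0.44, edgeR adjusted p = 1.92e-07). SESN3, of the sestrin family, changed by -0.51 at 3.18 ± 0.405 against 4.54 ± 0.216 CPM, and SEH1L, a GATOR2 and nuclear pore subunit, by 0.17. RRAGA was called in all 6 fits without 1 library, and SESN3 and SEH1L were not in 4 and 3 of them: SESN3 without knockout replicate 1 or 2 or wild-type replicate 2 or 3 (-0.48, -0.44, -0.51 and -0.48), and SEH1L without knockout replicate 2 or 3 or wild-type replicate 2 (0.17, 0.16 and 0.17). Among enzymes BCKDHA, of branched-chain amino acid breakdown, fell to 23.8 ± 0.537 against 37.4 ± 2.34 CPM (-0.65), ASS1, of arginine synthesis, to 61.2 ± 0.831 against 91.1 ± 3.19 CPM (-0.57), and the glutaminase gene GLS2 to 12.2 ± 0.468 against 16.4 ± 1.77 CPM (-0.44). ODC1, the first enzyme of polyamine synthesis, rose to 491 ± 6.42 against 428 ± 6.62 CPM (0.20). These 4 enzymes were called in each of the 6 fits.

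Of the other carriers SLC25A13, the mitochondrial aspartate and glutamate exchanger, changed by 0.24 and SFXN3, a mitochondrial sideroflexin, by -0.16. They were not called without knockout replicate 2 or 3 (0.23 and 0.19, and -0.15 and -0.16), nor SFXN3 without wild-type replicate 2 (-0.17). Among surface regulators TXNIP and ARRDC3, of the arrestin family, changed by -0.28 and -0.20, and ARRDC3 was not called without knockout replicate 3 or wild-type replicate 2 (-0.18 and -0.19). Among transcription factors MAFF, a small MAF protein that can pair with NRF2, MITF and MYC changed by -0.43, -0.36 and -0.22. MITF was not called by DESeq2 (-0.36) or without knockout replicate 1 or 3 or wild-type replicate 1 (-0.36, -0.28 and -0.28).

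**Figure D5:**
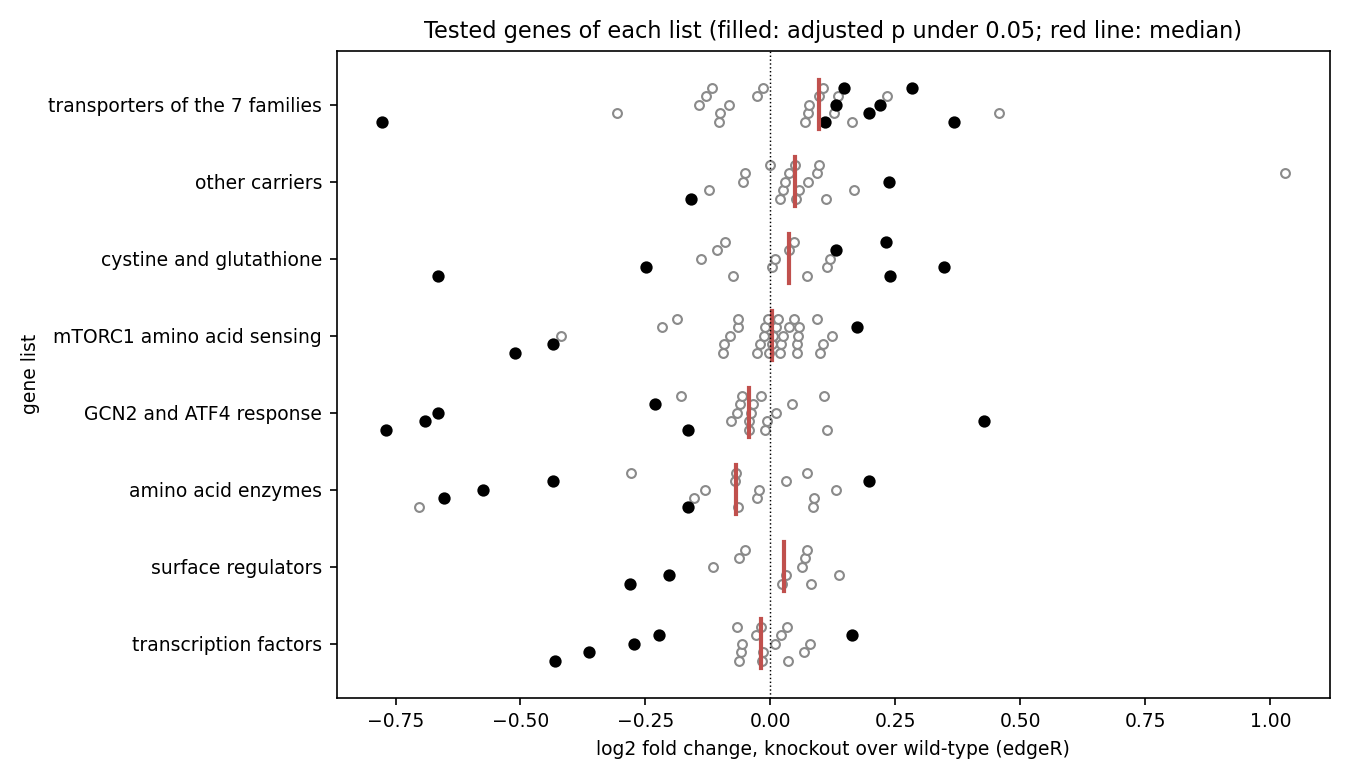
Log2 fold change, knockout over wild type (x axis), of the tested genes of the transporter families and of each list of related genes; filled points passed an adjusted p of 0.05 in edgeR and red lines are medians. The median of the transporter families is 0.10, and the list medians run from -0.07 to 0.05.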

How the data were processed

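Each library has 1 deposited table of raw counts by gene symbol, which the authors left unscaled. The submitters' processing notes name hg38 and, without versions or roles, TopHat, limma and edgeR. How reads were assigned to genes (program, annotation, strand, multiple matches) is not given in the sources used here. Libraries were made from polyadenylated RNA and sequenced as paired-end reads, per the labels' protocols. Groups came from the sample titles. The members and gene lists were chosen with earlier results of these data known.

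The fit used edgeR 4.0.16 under R 4.3.3. The filterByExpr function (at least 10 counts, total 15) left 14409 genes, which were scaled by TMM and fitted by group in the robust quasi-likelihood model. Benjamini-Hochberg adjustment ran over all tested genes, with a threshold of 0.05. Fold changes are knockout over wild type, with standard errors from the F statistic. Alternatives were RLE scaling, library size alone, other filters, a replicate block, a GC offset (spline, 5 degrees of freedom; 95.9% of tested genes had a GC content), DESeq2 1.42.0, limma-voom (limma 3.58.1), no robust option and leaving out each library. Exon lengths, overlaps and GC came from GENCODE 29. Within groups libraries differed by more than sampling noise (chi-square per degree of freedom 3.11 to 9.30). The test was checked on simulated data. Named genes were GSK3B, the called members, SLC7A11, SLC3A2, SLC7A5, SLC1A5 and SLC38A2, the 2 highest members of families without a call, and up to 4 called genes per list; the remaining tested members are named for completeness. Some genes that these rules would name are not reported here.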

Additional observations from a re-analysis of the deposited data

How the results depend on the processing

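Called transporter genes numbered 8; library size alone gave 5, and there were 14 with the GC correction, with or without the replicate block, and 2 to 12 in the fits without 1 library. Over all genes 1951 were called, 3044 with the GC correction (1978 higher, 1066 lower), 3060 with that correction and the block, 1878 with library size alone (649 higher, 1229 lower), and 950 to 2531 without 1 library. The causes were not tested. GSK3B was called under every setting run. SLC7A11 was called under all 10 other settings and ran from 0.30 to 0.46 without 1 library. Signs changed for members that were not called: SLC38A2 ran from -0.081 to 0.0087 in the fits without 1 library, positive without wild-type replicate 1, and SLC3A1 from -0.053 to 0.0093, positive without knockout replicate 1 or wild-type replicate 1 or 2, and SLC43A1 was 0.0011 with the GC correction. The median level per length in the knockout was 7.16 CPM per kb with exon unions and 10.2 with the longest transcript. The replicate numbers share no stated culture or day. Deviations of same-numbered libraries correlated at 0.07, -0.00 and 0.03, and those of knockout and wild-type libraries with different numbers at -0.09 to 0.06. These values do not show whether same-numbered libraries share a culture or day, which was not tested. With the replicate block 8 transporter genes and 2193 genes in all were called; SLC7A1 was then not called (log2 fold change 0.11, adjusted p = 0.0503). Groups of 3 libraries limit the precision.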
